A study of Neurospora crassa with 16 samples.

Results

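The genes described here are the fatty acid oxidation and peroxisome genes of the filamentous fungus Neurospora crassa, followed in a strain labelled as a deletion mutant of the serine/threonine kinase gene stk-12 and in wild type (WT). They were chosen by the annotation text deposited with the count table. A gene was taken if that text named a peroxisome or peroxin, an acyl-CoA dehydrogenase, enoyl-CoA hydratase, acyl-CoA synthetase or ligase, 3-ketoacyl-CoA thiolase, or an "acyltransferase 2". The text matched 48 of the 9730 genes in the table, and the search itself used no measured value, though its terms were chosen with earlier results of these data known. By the annotations, the 48 genes held 3 genes of acyl-CoA activation, 4 peroxisomal transporters, 5 acyl-CoA dehydrogenases, 8 enoyl-CoA hydratases and isomerases, 4 3-hydroxyacyl-CoA dehydrogenases, 3 thiolases, 16 peroxins, 4 other peroxisomal proteins and 1 acyltransferase. The 3-hydroxyacyl-CoA dehydrogenases entered because their name contains the words searched for, and the acyltransferase is an enzyme of phospholipid synthesis. NCU08935 was placed with acyl-CoA activation although its annotation names no fatty acid substrate.

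The study was RNA-seq of mycelium grown in liquid medium with 2% Avicel, a crystalline cellulose, as carbon source. Cultures of the Δstk-12 mutant and of WT were started from conidia, the asexual spores, and kept at 25 °C in constant light. Mycelium was taken after 12h, 1d, 3d and 5d, with 2 libraries of each strain at each time and 16 libraries in all. Both strains received the same medium, temperature and light, and the labels give no other allele and no treatment. The labels do not say whether the 2 libraries of a group came from separate cultures, so the p-values measure the spread between these libraries, which may be technical.

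In filamentous fungi fatty acids are activated to acyl-CoA and shortened by β-oxidation, in which a dehydrogenase or oxidase, a hydratase, a hydroxyacyl-CoA dehydrogenase and a thiolase act in turn and release acetyl-CoA. Neurospora microbodies of the glyoxysome type are known for an acyl-CoA dehydrogenase in the first step, where most peroxisomes use an acyl-CoA oxidase, and for a multifunctional protein, FOX-2, in the next ones. Peroxins are the proteins that build the organelle: receptors carry enzymes to a docking complex in its membrane, a RING and an AAA ATPase complex recycle the receptors, and other peroxins insert membrane proteins or set the number of organelles.

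Gene reads per library ran between 14946389 and 26466759, and the 48 genes took 0.391% to 0.571% of them. The stk-12 gene itself was lower in the mutant at each time, with log2 differences of -1.39, -2.03, -1.52 and -1.21 at 12h, 1d, 3d and 5d, each past the test described below. It kept 155 to 1190 reads per mutant library, against 483 to 2429 per WT library, so reads at the locus were fewer and not absent in the libraries labelled as the deletion. The mating type gene matA-1 had 0 reads in each of the 8 mutant libraries and 350 to 4396 reads in the WT libraries, so the strains also differed at the mating type locus. Of 7 conidiation markers, genes of the asexual spore programme, none was at 0 reads in any library. Their summed level in the mutant was 381 to 508 CPM, the usual count scaled to library size, at 12h, 175 to 177 at 1d, 466 to 489 at 3d and 1711 to 1783 at 5d. In WT it was 456 to 526 CPM at 12h, 236 to 265 at 1d, 2089 to 2098 at 3d and 922 to 1459 at 5d. The sum does not stand for each marker. At 5d, where the mutant had the higher sum, 2 markers were higher and 4 lower in the mutant by the test described below. Their median log2 difference was -1.96. In bulk mycelium, fewer cells of a type and less RNA per cell cannot be told apart. Of the 48 genes, 12 overlap another annotated locus, and the sources used here do not say whether reads were counted by strand, so their counts may include reads of the neighbour. Among the genes named below these are NCU00828, NCU03151, NCU03929, NCU05518, NCU06647, NCU07578, mic-14, pex5, pex19, pex26 and the isomerase gene NCU00299.

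The deposited RPKM values, which divide read counts by gene length and library size, allow levels to be compared between genes. NCU03151, annotated as a peroxisomal membrane protein, had the highest mean over the 16 libraries, 187 RPKM. It was followed by fox-2 (NCU08828) with 153 RPKM, the hydratase-dehydrogenase-epimerase of β-oxidation. Next came pex11 (NCU04802) with 144 RPKM, a peroxin of organelle proliferation, and NCU06643 (127 RPKM), annotated as an oleate-induced peroxisomal protein. The acyl-CoA dehydrogenase gene acd-1 (NCU02287) averaged 79.3 RPKM, the thiolase gene NCU04796 averaged 75.8 RPKM and the acyl-CoA synthetase gene NCU04380 averaged 75.7 RPKM. At the low end stood the 3-hydroxyacyl-CoA dehydrogenase genes NCU08058 (2.66 RPKM) and NCU04393 (4.76 RPKM) and the adenine nucleotide transporter gene NCU07578 (3.01 RPKM).

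**Figure D1:**
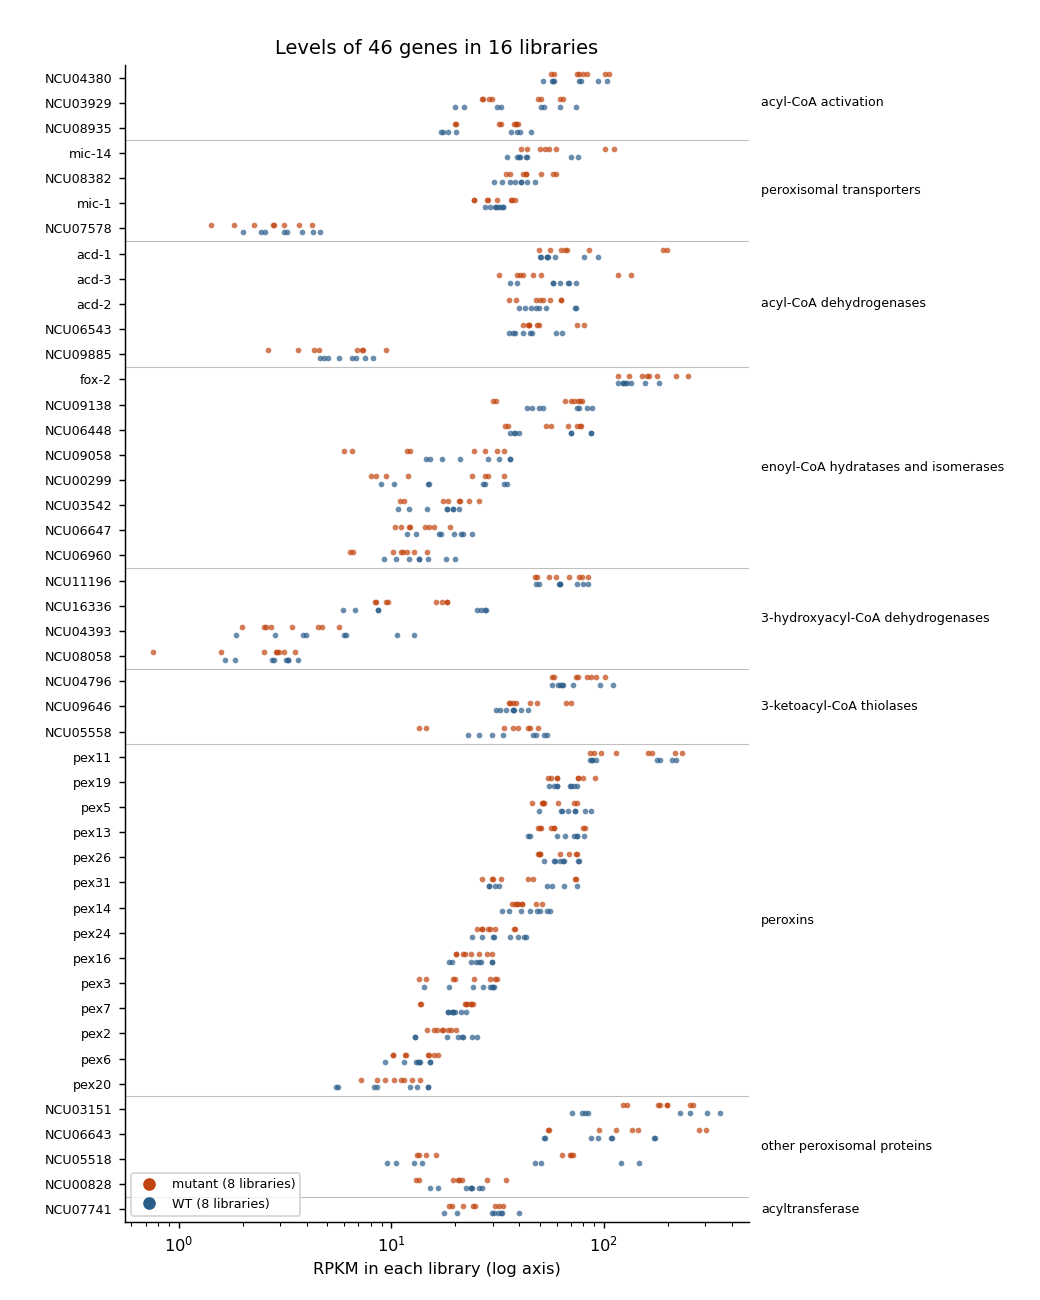
Deposited RPKM of 46 of the 48 genes by role, on a log axis, with 1 point for each of the 16 libraries. NCU03151, fox-2 and pex11 reach the highest means (187, 153 and 144 RPKM), and NCU08058 the lowest (2.66 RPKM).

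Mutant and WT were compared at each time with edgeR's quasi-likelihood test on the counts, with Benjamini-Hochberg adjusted p-values over all 8983 genes that passed the low count filter. All 48 genes passed it. A gene passed the test if its adjusted p was below 0.05, and it is called higher or lower in the mutant relative to WT. Per-library levels below, and the summed marker levels above, are CPM scaled by TMM, edgeR's factors for library composition. Each log2 difference is the fitted mutant minus WT value with its standard error (SE).

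At 12h 12 of the 48 genes (25.0%) passed, where 13% of all genes tested passed. Of these, 10 were higher in the mutant and 2 lower, against backgrounds of 6.53% and 6.51%. At 1d 17 genes (35.4%) passed, against a background of 37.1%. They were 2 higher and 15 lower genes, with backgrounds of 19.1% higher and 18.0% lower. At 3d 36 genes (75.0%) passed, against 59.5%, of which 20 were higher (background 29.4%) and 16 lower (background 30.0%). At 5d 32 genes (66.7%) passed, against 61.6%, of which 17 were higher (background 30.6%) and 15 lower (background 30.9%). The share at 1d was thus near the background and that at 5d little above it. The median log2 difference of the 48 genes was 0.13, -0.15, 0.07 and -0.05 at the 4 times, and that of all genes -0.03, 0.02, -0.02 and -0.01. The median size of the difference, without its sign, was 0.17, 0.20, 0.40 and 0.27 for the 48 genes and 0.15, 0.25, 0.37 and 0.36 for all genes. A difference of at least 2-fold that passed the test was found for 0, 0, 4 and 5 of the 48 genes. The share of all genes tested at that cut was not counted, so whether these are many or few was not tested.

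Each comparison was repeated under 22 alternatives, which changed the scaling, the tool, the filter or the libraries in the fit. Of the calls, 0 of 12 at 12h, 3 of 17 at 1d, 24 of 36 at 3d and 21 of 32 at 5d passed in all 22. Scaling by library totals alone, with no TMM factors, shifted the median difference of all genes by 0.04, 0.16, -0.23 and -0.10 at the 4 times. It gave 10 higher and 1 lower, 8 higher and 4 lower, 15 higher and 22 lower, and 9 higher and 16 lower genes. Under both TMM and library totals, 11, 6, 31 and 24 genes passed in the same direction and 0 in opposite directions. RLE factors are another scaling for library composition. They gave 9 higher and 2 lower, 1 higher and 16 lower, 21 higher and 15 lower, and 17 higher and 15 lower genes. The account by role below therefore rests on 3d and 5d, and the earlier times follow it. At 3d, 0 of the 7 conidiation markers were higher and 6 lower in the mutant, and at 5d 2 were higher and 4 lower. Their part in the differences of the 48 genes was not tested.

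**Figure D2:**
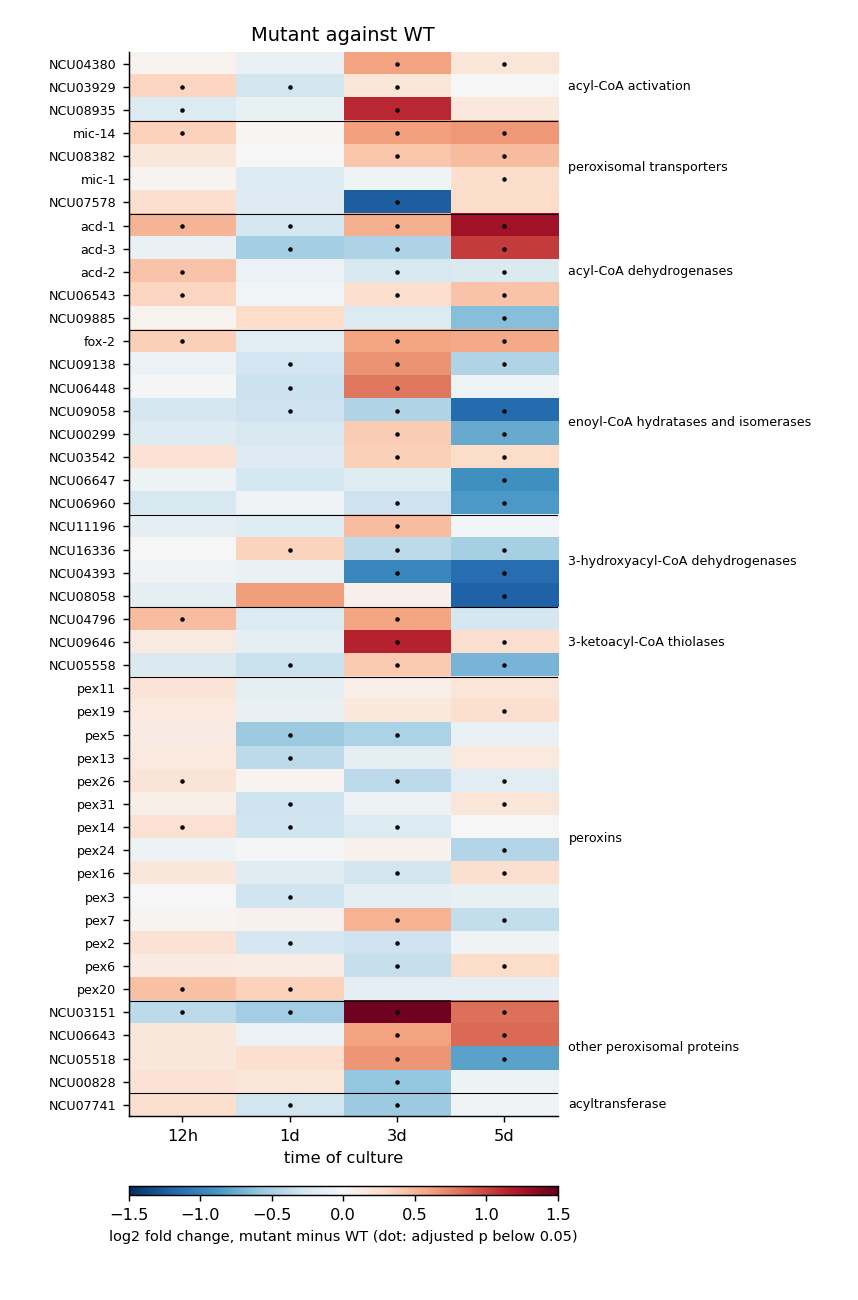
Fitted log2 difference, mutant minus WT, of 46 of the 48 genes (rows, grouped by role) at 12h, 1d, 3d and 5d (columns); dots mark differences that passed the test. The dots are most frequent at 3d, where the strongest colours are those of NCU03151 (1.46) and NCU07578 (-1.24).

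Of the 3 genes grouped as acyl-CoA activation, the entry step, 3 were higher in the mutant at 3d, where 29.4% of all genes tested were higher. At 5d 1 was higher and 0 lower. Under library totals, 2 were higher at 3d and none was higher or lower at 5d. The annotation of NCU08935, peroxisomal-coenzyme A synthetase, names no fatty acid substrate. This gene had 66.0 and 66.8 CPM in the mutant libraries at 3d, against 30.4 and 30.2 CPM in the WT libraries. Both mutant libraries lay more than 2-fold above both WT libraries, and the log2 difference was 1.13 ± 0.0671 (SE, adjusted p = 3.34e-10). At 5d its libraries were close together, with 35.7 and 36.9 CPM in mutant libraries, against 31.6 and 33.3 CPM in WT (0.16 ± 0.0690 SE, adjusted p = 0.0548). The acyl-CoA synthetase gene NCU04380, which forms acyl-CoA from free fatty acids, had 239 and 243 CPM in mutant, against 161 and 155 CPM in WT libraries at 3d, with no overlap and a difference of 0.61 ± 0.0671 (SE, adjusted p = 7.87e-07). Its difference at 5d, 0.18 ± 0.0674 (SE, adjusted p = 0.0274), did not pass without mutant 5d replicate 2 (0.14, adjusted p = 0.164), without WT 5d replicate 1 (0.15, adjusted p = 0.142), with library totals (0.08, adjusted p = 0.325) or with each time fitted alone (0.18, adjusted p = 0.0676). The third gene, the acyl-CoA synthetase gene NCU03929, had 143 and 152 CPM in mutant libraries, against 133 and 126 CPM in WT at 3d. Its difference of 0.19 ± 0.0712 (SE, adjusted p = 0.0342) was lost without mutant 3d replicate 2 (0.14, adjusted p = 0.213), without WT 3d replicate 2 (0.14, adjusted p = 0.194) and with library totals (-0.04, adjusted p = 0.647).

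Among the 4 peroxisomal transporters, 2 were higher and 1 lower in the mutant at 3d (29.4% and 30.0% of all genes). At 5d 3 were higher and 0 lower (30.6% and 30.9% of all genes). With library totals 2 were higher and 2 lower at 3d, and 2 higher and 0 lower at 5d. The gene mic-14 (NCU03556) encodes a protein annotated as Pmp47, a peroxisomal membrane carrier known from the yeast Candida boidinii. Its level was 98.1 and 107 CPM in mutant libraries, against 70.7 and 63.5 CPM in WT at 3d. At 5d mic-14 had 168 and 189.6 CPM in mutant libraries, against 112 and 116 CPM in WT. Both mutant libraries were above both WT libraries at each of these times, with differences of 0.61 ± 0.0882 (SE, adjusted p = 1.65e-05) and 0.65 ± 0.0860 (SE, adjusted p = 7.19e-06). The peroxisomal ABC transporter gene NCU08382, whose yeast counterparts import acyl-CoA, was higher at both times too, by 0.41 ± 0.0731 (SE, adjusted p = 0.000140) and 0.47 ± 0.0727 (SE, adjusted p = 3.59e-05). The adenine nucleotide transporter gene NCU07578, a gene with few reads, had 3.17 and 2.55 CPM in the mutant at 3d, against 7.09 and 6.37 CPM in WT. Both mutant libraries lay more than 2-fold below both WT libraries, and the difference was -1.24 ± 0.204 (SE, adjusted p = 6.64e-05). At 5d the lower mutant library was level with the higher WT library, with 5.64 and 6.70 CPM in mutant libraries, against 5.63 and 4.60 CPM in WT (0.28 ± 0.190 SE, adjusted p = 0.219). The second adenine nucleotide transporter gene, mic-1 (NCU00316), had 43.1 and 44.6 CPM in mutant libraries, against 47.5 and 43.8 CPM in WT at 3d (-0.06 ± 0.0812 SE, adjusted p = 0.551). It was higher at 5d by 0.26 ± 0.0799 (SE, adjusted p = 0.0107), a call lost without WT 5d replicate 2 (0.22, adjusted p = 0.0771) and with library totals (0.16, adjusted p = 0.101).

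The acyl-CoA dehydrogenases, which introduce the first double bond, did not move as 1 group. In the mutant 2 were higher and 2 lower at 3d (29.4% and 30.0% of all genes). At 5d 3 were higher and 2 lower (30.6% and 30.9% of all genes). With library totals 1 was higher and 2 lower at 3d, and 3 higher and 2 lower at 5d. The gene with the highest RPKM of them, acd-1, had 135 and 134 CPM in mutant, against 98.4 and 88.3 CPM in WT libraries at 3d (0.53 ± 0.0978 SE, adjusted p = 0.000207). Its level at 5d was 348 and 371 CPM in mutant libraries, against 142 and 159 CPM in WT, a difference of 1.26 ± 0.0967 (SE, adjusted p = 1.42e-08). The mutant libraries stood above the WT libraries at both times, and at 5d both were more than 2-fold above. The family member 11 gene acd-3 (NCU01181) had 80.2 and 75.5 CPM in mutant libraries, against 113 and 101 CPM in WT at 3d. By 5d the libraries had 180.4 and 213 CPM in mutant libraries, against 102 and 88.7 CPM in WT. It was thus below WT at 3d (-0.46 ± 0.119 SE, adjusted p = 0.00342) and above WT at 5d (1.05 ± 0.118 SE, adjusted p = 1.30e-06), without overlap of the libraries at either time. With pex6 and pex16 it was 1 of 3 genes that passed as lower at 3d and higher at 5d. NCU06543 was higher at both times, by 0.25 ± 0.0771 (SE, adjusted p = 0.0110) and 0.43 ± 0.0758 (SE, adjusted p = 0.000132). At 3d that call was lost without WT 3d replicate 2 (0.24, adjusted p = 0.0522) and with library totals (0.02, adjusted p = 0.821).

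The acyl-CoA dehydrogenase gene acd-2 (NCU08924) had 91.7 and 87.6 CPM in mutant libraries, against 111 and 100.5 CPM in WT at 3d. At 5d it had 117 and 135 CPM in mutant libraries, against 148 and 145 CPM in WT. Its differences were small, -0.24 ± 0.0877 (SE, adjusted p = 0.0270) and -0.22 ± 0.0863 (SE, adjusted p = 0.0398). The call at 3d was lost without mutant 3d replicate 1 (-0.23, adjusted p = 0.121), mutant 3d replicate 2 (-0.21, adjusted p = 0.139), WT 3d replicate 1 (-0.16, adjusted p = 0.212) or WT 5d replicate 2 (-0.20, adjusted p = 0.0663), with RLE factors (-0.21, adjusted p = 0.0543) and with DESeq2 (-0.21, adjusted p = 0.0650). The call at 5d was lost without mutant 3d replicate 1 (-0.22, adjusted p = 0.0518), mutant 5d replicate 1 (-0.12, adjusted p = 0.332), WT 5d replicate 1 (-0.20, adjusted p = 0.125) or WT 5d replicate 2 (-0.24, adjusted p = 0.0750). NCU09885, the least abundant of the 5 per length, had 10.5 and 6.30 CPM in mutant libraries, against 9.36 and 9.93 CPM in WT at 3d, where the mutant libraries lay on either side of WT. It was lower at 5d, with a difference of -0.64 ± 0.187 (SE, adjusted p = 0.00755), a call lost without mutant 5d replicate 1 (-0.51, adjusted p = 0.0732).

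Enoyl-CoA hydratases and isomerases add water to the double bond or shift it. At 3d 5 of the 8 were higher and 2 lower in the mutant, where 29.4% and 30.0% of all genes tested were. At 5d 2 were higher and 5 lower, against 30.6% and 30.9% of all genes. With library totals 3 were higher and 3 lower at 3d, so the greater number of higher genes was not seen under that scaling, and 1 was higher and 5 lower at 5d. The enoyl-CoA hydratase gene NCU06448 had 64.9 and 63.6 CPM in mutant libraries, against 38.5 and 35.7 CPM in WT at 3d. The mutant libraries lay well above WT, with a difference of 0.79 ± 0.0692 (SE, adjusted p = 4.63e-08), whereas at 5d the libraries had 36.1 and 36.1 CPM in mutant libraries, against 39.2 and 36.3 CPM in WT (-0.06 ± 0.0713 SE, adjusted p = 0.445). The peroxisomal dehydratase gene NCU09138 had 104 and 97.8 CPM in mutant libraries, against 62.8 and 64.2 CPM in WT at 3d. At 5d NCU09138 had 38.4 and 40.6 CPM in mutant libraries, against 56.7 and 51.6 CPM in WT. Its libraries were separated in opposite directions at the 2 times, with differences of 0.67 ± 0.0668 (SE, adjusted p = 2.34e-07) and -0.45 ± 0.0700 (SE, adjusted p = 3.82e-05). The multifunctional gene fox-2, whose product carries out both the hydratase and the dehydrogenase step, had 501 and 531 CPM in mutant libraries, against 372 and 313 CPM in WT at 3d. At 5d fox-2 had 605 and 707 CPM in mutant libraries, against 417 and 468 CPM in WT. All mutant libraries of fox-2 were above all WT libraries of the same time, and the differences were 0.59 ± 0.102 (SE, adjusted p = 0.000108) and 0.57 ± 0.102 (SE, adjusted p = 0.000160).

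Of the remaining hydratase and isomerase genes, 4 were lower in the mutant at 5d and NCU03542 was higher. The enoyl-CoA hydratase gene NCU09058 had 9.50 and 10.7 CPM in mutant libraries, against 22.4 and 22.6 CPM in WT at 5d, and its difference was -1.15 ± 0.123 (SE, adjusted p = 6.72e-07). At 3d it had 21.3 and 22.7 CPM in mutant libraries, against 33.3 and 26.7 CPM in WT (-0.45 ± 0.111 SE, adjusted p = 0.00220), a call lost without WT 3d replicate 1 (-0.28, adjusted p = 0.0625). The hydratase/isomerase gene NCU06647 had 14.6 and 17.3 CPM in mutant libraries, against 32.2 and 28.3 CPM in WT at 5d (-0.92 ± 0.128 SE, adjusted p = 1.36e-05). NCU06960, annotated as a hydratase or carnitine racemase, had 9.55 and 10.2 CPM in mutant libraries, against 19.3 and 16.7 CPM in WT at 5d (-0.87 ± 0.128 SE, adjusted p = 2.47e-05). In all of these 3 genes both mutant libraries at 5d lay below both WT libraries. At 3d NCU06960 was lower, with a difference of -0.31 ± 0.115 (SE, adjusted p = 0.0273), a call lost without mutant 3d replicate 2 (-0.16, adjusted p = 0.308), without WT 3d replicate 1 (-0.22, adjusted p = 0.208) and with DESeq2 (-0.28, adjusted p = 0.0588). The D3,D2-enoyl-CoA isomerase gene NCU00299, which acts on unsaturated fatty acids, had 7.90 and 8.61 CPM in mutant libraries, against 14.1 and 13.8 CPM in WT at 5d, lower, with a difference of -0.75 ± 0.133 (SE, adjusted p = 0.000141). At 3d it was higher by 0.38 ± 0.133 (SE, adjusted p = 0.0217), a call lost without mutant 3d replicate 1 (0.27, adjusted p = 0.164), WT 3d replicate 2 (0.27, adjusted p = 0.175) and with library totals (0.15, adjusted p = 0.330). NCU03542 was higher by 0.36 ± 0.116 (SE, adjusted p = 0.0145) and 0.28 ± 0.115 (SE, adjusted p = 0.0468) at the 2 times, and these calls were lost in 3 and 12 of the 22 alternatives.

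The 3-hydroxyacyl-CoA dehydrogenases oxidise the hydroxyl group before cleavage. At 3d 1 was higher and 2 lower in the mutant (29.4% and 30.0% of all genes). At 5d 0 were higher and 3 lower (30.6% and 30.9% of all genes). The counts were the same with library totals. NCU16336, which the table annotates with this name, had 41.2 and 40.0 CPM in mutant libraries, against 55.2 and 51.3 CPM in WT at 3d. Its level at 5d was 38.6 and 39.7 CPM in mutant libraries, against 56.8 and 54.1 CPM in WT. Both mutant libraries were below WT at both times, with differences of -0.39 ± 0.0869 (SE, adjusted p = 0.00101) and -0.50 ± 0.0870 (SE, adjusted p = 0.000115). NCU04393, with few reads, had 5.35 and 4.42 CPM in mutant libraries, against 10.6 and 8.62 CPM in WT at 3d. By 5d the libraries had 2.12 and 2.22 CPM in mutant libraries, against 4.85 and 4.75 CPM in WT. The mutant libraries were below both WT libraries at each time, with differences of -0.98 ± 0.196 (SE, adjusted p = 0.000415) and -1.14 ± 0.238 (SE, adjusted p = 0.000613). NCU08058, the least abundant of the 48 genes, had 1.22 and 2.61 CPM in mutant libraries, against 4.28 and 4.86 CPM in WT at 5d. Its mutant libraries differed from each other by more than its WT libraries did, and the difference was -1.22 ± 0.271 (SE, adjusted p = 0.00107). NCU11196, by far the most abundant of the 4 per length at 65.2 RPKM, went the other way at 3d. It had 105 and 98.4 CPM in mutant libraries, against 82.1 and 65.6 CPM in WT (0.46 ± 0.0962 SE, adjusted p = 0.000633), and at 5d 75.7 and 89.5 CPM in mutant libraries, against 89.4 and 81.3 CPM in WT (-0.05 ± 0.0964 SE, adjusted p = 0.698).

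Thiolases cleave the chain and release acetyl-CoA, and all 3 were higher in the mutant at 3d (29.4% of all genes). At 5d 1 was higher and 1 lower (30.6% and 30.9% of all genes). With library totals 2 were higher and 0 lower at 3d, and 0 higher and 2 lower at 5d. NCU09646 had 114 and 125 CPM in mutant libraries, against 56.4 and 51.2 CPM in WT at 3d. Both mutant libraries were more than 2-fold above both WT libraries, a difference of 1.15 ± 0.0767 (SE, adjusted p = 1.51e-09). At 5d it had 68.1 and 76.0 CPM in mutant libraries, against 64.3 and 57.6 CPM in WT (0.24 ± 0.0772 SE, adjusted p = 0.0123), a call lost without mutant 5d replicate 2 (0.16, adjusted p = 0.152), WT 5d replicate 2 (0.16, adjusted p = 0.171) and with library totals (0.14, adjusted p = 0.0912). NCU04796, the thiolase gene with the highest RPKM, had 212 and 199.6 CPM in mutant libraries, against 146 and 127 CPM in WT at 3d (0.59 ± 0.116 SE, adjusted p = 0.000354). At 5d its mutant libraries lay below WT, at 152 and 184 CPM against 191 and 209.7 CPM in WT, a difference that did not pass (-0.25 ± 0.115 SE, adjusted p = 0.0700). NCU05558 had 68.4 and 64.3 CPM in mutant libraries, against 53.9 and 46.8 CPM in WT at 3d. At 5d NCU05558 had 22.1 and 24.4 CPM in mutant libraries, against 36.1 and 39.2 CPM in WT. It was higher in the mutant at 3d (0.40 ± 0.0838 SE, adjusted p = 0.000675) and lower at 5d (-0.70 ± 0.0912 SE, adjusted p = 6.77e-06), and the call at 3d was lost with library totals (0.17, adjusted p = 0.0914).

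**Figure D3:**
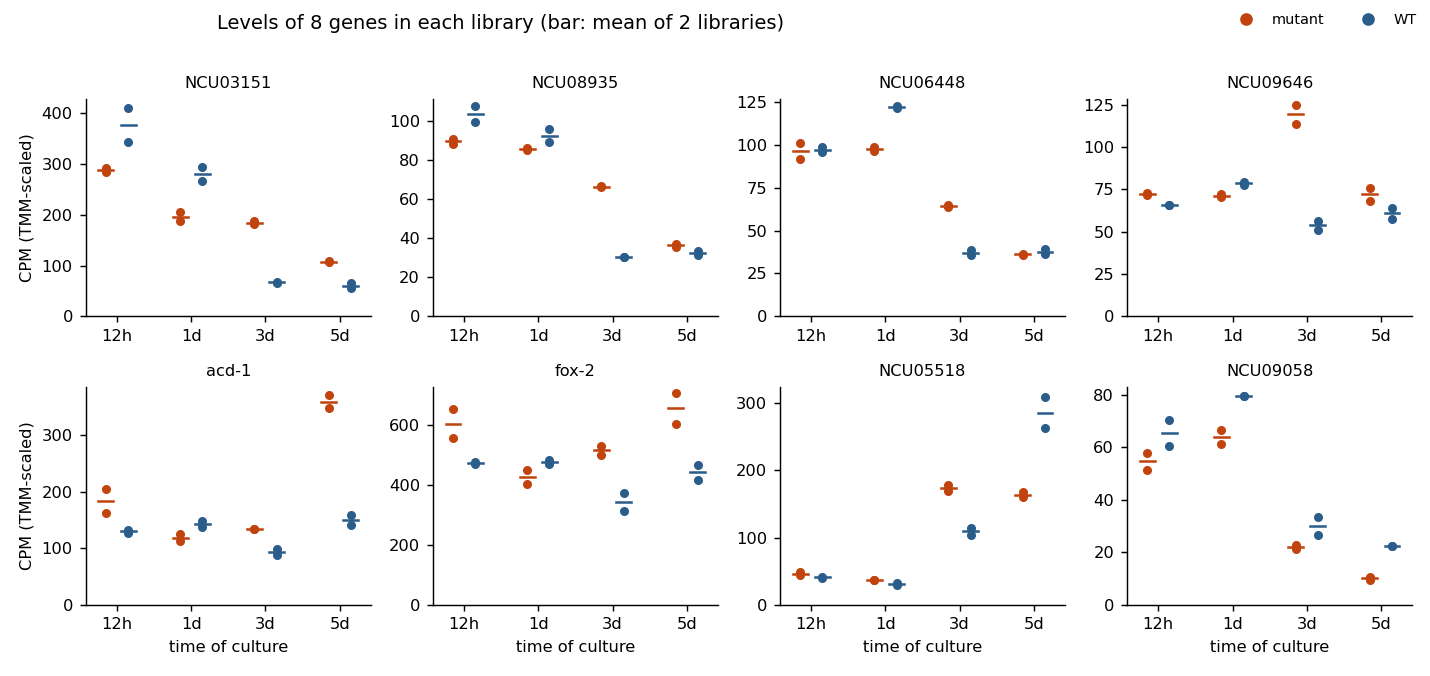
TMM-scaled CPM of 8 genes in each library at 12h, 1d, 3d and 5d, mutant libraries left of WT libraries, with 1 point per library and a short bar at each group mean. At 3d the mutant libraries of NCU03151, NCU08935, NCU06448 and NCU09646 lie above the WT libraries, and at 5d those of acd-1 and fox-2 lie above and those of NCU05518 and NCU09058 below them.

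Of the 16 peroxins, 1 was higher and 7 lower in the mutant at 3d, and 5 were higher and 3 lower at 5d. Of all genes tested, 29.4% were higher and 30.0% lower at 3d, and 30.6% and 30.9% at 5d, so the higher peroxins at 5d were near the background share. With library totals 1 was higher and 11 lower at 3d, and 1 higher and 3 lower at 5d. The gene pex5 (NCU02960) encodes the receptor for the peroxisomal targeting signal of type 1, which most matrix enzymes carry. It had 148 and 152 CPM in mutant libraries, against 219 and 199.9 CPM in WT at 3d, lower in both mutant libraries (-0.48 ± 0.0914 SE, adjusted p = 0.000267), and 117 and 132 CPM in mutant libraries, against 121 and 147 CPM in WT at 5d (-0.11 ± 0.0923 SE, adjusted p = 0.337). The gene pex7 (NCU07662) encodes the receptor for the type 2 signal and was the peroxin that was higher at 3d. Its libraries had 45.9 and 47.1 CPM in mutant libraries, against 32.9 and 32.0 CPM in WT at 3d. Its level at 5d was 23.4 and 23.6 CPM in mutant libraries, against 31.4 and 29.1 CPM in WT. The groups were separated in opposite directions, by 0.52 ± 0.0745 (SE, adjusted p = 1.59e-05) and -0.36 ± 0.0784 (SE, adjusted p = 0.000800). The co-receptor gene pex20 (NCU04062), which acts with PEX7 in fungi, had 21.0 and 24.1 CPM in mutant libraries, against 26.1 and 23.7 CPM in WT at 3d (-0.15 ± 0.112 SE, adjusted p = 0.277). By 5d the libraries had 22.8 and 27.8 CPM in mutant libraries, against 28.6 and 27.4 CPM in WT (-0.14 ± 0.111 SE, adjusted p = 0.284).

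The docking peroxin gene pex13 (NCU02618) had 162 and 174 CPM in mutant libraries, against 189 and 179 CPM in WT at 3d (-0.13 ± 0.0755 SE, adjusted p = 0.148). At 5d it had 207 and 209.5 CPM in mutant libraries, against 183 and 192 CPM in WT (0.15 ± 0.0753 SE, adjusted p = 0.0917). Its partner in docking, pex14 (NCU03901), was lower at 3d, with a difference of -0.21 ± 0.0686 (SE, adjusted p = 0.0161), a call lost without mutant 3d replicate 1 (-0.17, adjusted p = 0.123), mutant 3d replicate 2 (-0.20, adjusted p = 0.0743) or WT 3d replicate 2 (-0.15, adjusted p = 0.160) and with DESeq2 (-0.18, adjusted p = 0.0590). The RING peroxin gene pex2 (NCU02070), whose product helps to export the receptors, was lower at 3d, with a difference of -0.31 ± 0.0772 (SE, adjusted p = 0.00225). The call was lost without mutant 3d replicate 1 (-0.20, adjusted p = 0.0936). Of the AAA ATPase complex, pex6 (NCU08373) had 48.1 and 50.1 CPM in mutant libraries, against 63.2 and 61.6 CPM in WT at 3d. At 5d pex6 had 49.0 and 50.5 CPM in mutant libraries, against 37.9 and 44.5 CPM in WT. It was lower at 3d (-0.35 ± 0.0726 SE, adjusted p = 0.000612) and higher at 5d (0.27 ± 0.0743 SE, adjusted p = 0.00485). The call at 5d was lost without WT 5d replicate 1 (0.16, adjusted p = 0.0970) and with library totals (0.17, adjusted p = 0.0813). The gene of the membrane anchor of this complex, pex26 (NCU00347), was lower at 3d (-0.39 ± 0.0631 SE, adjusted p = 4.79e-05). A lower level of pex26 at 5d (-0.16 ± 0.0636 SE, adjusted p = 0.0342) was lost in 6 of the 22 alternatives, among them leaving out any 1 of the 4 libraries of 5d.

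Among the peroxins that insert membrane proteins, pex16 (NCU01850) was lower at 3d (-0.27 ± 0.0892 SE, adjusted p = 0.0153) and higher at 5d (0.24 ± 0.0893 SE, adjusted p = 0.0266). The 3d call was lost without mutant 3d replicate 1 (-0.15, adjusted p = 0.297) or WT 3d replicate 1 (-0.25, adjusted p = 0.0726). The 5d call was lost without any 1 of the 4 libraries of 5d and with library totals (0.14, adjusted p = 0.184). Its partner pex19 (NCU04301) was higher at 5d (0.25 ± 0.0741 SE, adjusted p = 0.00899), a call lost without mutant 5d replicate 1 (0.23, adjusted p = 0.0507), WT 5d replicate 2 (0.22, adjusted p = 0.0621) and with library totals (0.14, adjusted p = 0.129). For pex3 (NCU06175) the differences were -0.15 (adjusted p = 0.222) at 3d and -0.12 (adjusted p = 0.365) at 5d. The gene pex24 (NCU06637), which in yeasts helps to set organelle number and size, had 61.5 and 59.7 CPM in mutant libraries, against 79.8 and 84.0 CPM in WT at 5d and was lower, with a difference of -0.43 ± 0.0737 (SE, adjusted p = 9.51e-05). Another gene with such a role in yeasts, pex31 (NCU05564), was higher at 5d by 0.18 ± 0.0704 (SE, adjusted p = 0.0345), a call lost in 8 of the 22 alternatives. The proliferation gene pex11 was the 1 gene of the 48 that passed at none of the 4 times. It had 144 and 169, 126 and 119, 213 and 213, and 244 and 270.0 CPM in the mutant libraries at 12h, 1d, 3d and 5d, against 136 and 138, 136 and 134, 205 and 193, and 236 and 218 CPM in WT, with adjusted p-values of 0.116, 0.178, 0.292 and 0.0515.

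Of the 4 other peroxisomal proteins, 3 were higher and 1 lower in the mutant at 3d (29.4% and 30.0% of all genes). At 5d 2 were higher and 1 lower (30.6% and 30.9% of all genes). The counts were the same with library totals. NCU03151, the gene with the highest RPKM of the 48, had 188 and 181 CPM in mutant libraries, against 66.1 and 68.5 CPM in WT at 3d. Its level at 5d was 108 and 106 CPM in mutant libraries, against 65.9 and 55.3 CPM in WT. At 3d both mutant libraries were more than 2-fold above both WT libraries, and the differences were 1.46 ± 0.0937 (SE, adjusted p = 9.40e-10) and 0.82 ± 0.0944 (SE, adjusted p = 1.50e-06). The oleate-induced gene NCU06643 had 145 and 141 CPM in mutant libraries, against 95.3 and 93.4 CPM in WT at 3d. By 5d the libraries had 248 and 274 CPM in mutant libraries, against 147 and 142 CPM in WT. Its mutant libraries were higher at both times, by 0.60 ± 0.0778 (SE, adjusted p = 5.08e-06) and 0.85 ± 0.0767 (SE, adjusted p = 9.61e-08). NCU05518 is annotated as a peroxisomal copper amine oxidase, an enzyme that releases ammonia and hydrogen peroxide from primary amines. It had 178 and 169.7 CPM in mutant libraries, against 115 and 104 CPM in WT at 3d. At 5d it had 160.0 and 168 CPM in mutant libraries, against 262 and 309.8 CPM in WT. It was thus higher than WT at 3d (0.67 ± 0.0824 SE, adjusted p = 3.10e-06) and lower at 5d (-0.80 ± 0.0814 SE, adjusted p = 3.77e-07). The second peroxisomal membrane protein gene, NCU00828, had 16.7 and 18.0 CPM in mutant libraries, against 27.0 and 24.9 CPM in WT at 3d (-0.58 ± 0.106 SE, adjusted p = 0.000171), without overlap, and differed by -0.08 ± 0.103 (SE, adjusted p = 0.508) at 5d.

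The acyltransferase gene NCU07741, annotated as 1-acyl-sn-glycerol-3-phosphate acyltransferase 2, had 45.3 and 45.4 CPM in mutant libraries, against 67.9 and 63.9 CPM in WT at 3d. Both mutant libraries were below WT (-0.54 ± 0.0963 SE, adjusted p = 0.000141), and at 5d the libraries had 69.8 and 68.7 CPM in mutant libraries, against 66.5 and 76.8 CPM in WT (-0.05 ± 0.0941 SE, adjusted p = 0.668).

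At 12h the genes that were higher in the mutant came from the oxidation enzymes, the transporters and the peroxins. Each of these calls was lost when 1 or another single library was left out. Leaving out a 12h library leaves 1 in its group, so a call can be lost while the difference hardly moves. The largest difference was that of acd-1, with 163 and 205 CPM in mutant libraries, against 127 and 132 CPM in WT (0.50 ± 0.0964 SE, adjusted p = 0.00244). The mutant libraries of acd-1 were above WT and apart from each other, and without mutant 12h replicate 2, the higher one, the value was 0.33, adjusted p = 0.0547. For acd-2, with 144 and 173 CPM in mutant libraries, against 116 and 119.6 CPM in WT (0.43 ± 0.0863 SE, adjusted p = 0.00341), the value without that library was 0.29, adjusted p = 0.0700. NCU04796 (0.47 ± 0.115 SE, adjusted p = 0.0132), pex20 (0.44 ± 0.110 SE, adjusted p = 0.0136), fox-2 (0.35 ± 0.102 SE, adjusted p = 0.0312), mic-14 (0.35 ± 0.0867 SE, adjusted p = 0.0132) and NCU06543 (0.33 ± 0.0763 SE, adjusted p = 0.00930) were also higher and did not pass without that library. Those values were 0.25, adjusted p = 0.230 for NCU04796, 0.37, adjusted p = 0.134 for pex20, 0.24, adjusted p = 0.285 for fox-2, 0.23, adjusted p = 0.185 for mic-14 and 0.25, adjusted p = 0.118 for NCU06543. Without WT 12h replicate 1 the calls of these 5 genes were lost as well, while their differences stayed near those with all libraries. They were 0.46 for NCU04796, 0.45 for pex20, 0.35 for fox-2, 0.32 for mic-14 and 0.32 for NCU06543. Without WT 12h replicate 2 the calls of 3 genes were lost, again with little change in the differences. These were 0.47 for NCU04796, 0.44 for pex20 and 0.36 for fox-2. The higher calls of pex14 (0.23 ± 0.0681 SE, adjusted p = 0.0386) and pex26 (0.20 ± 0.0624 SE, adjusted p = 0.0489) were lost in 8 and 16 of the 22 alternatives. NCU03929 was higher (0.33 ± 0.0731 SE, adjusted p = 0.00723) and lost its call without WT 12h replicate 1 (0.28, adjusted p = 0.0965).

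The 2 genes that were lower in the mutant at 12h were NCU03151 and NCU08935. NCU03151 had 284 and 292 CPM in mutant libraries, against 411 and 344 CPM in WT (-0.39 ± 0.0892 SE, adjusted p = 0.00841), and lost its call without mutant 12h replicate 1 (-0.37, adjusted p = 0.0503) or WT 12h replicate 1 (-0.26, adjusted p = 0.159). NCU08935 had 90.7 and 88.4 CPM in mutant libraries, against 99.6 and 108 CPM in WT (-0.21 ± 0.0623 SE, adjusted p = 0.0357), a call lost in 9 of the 22 alternatives. Over the 48 genes, 2 passed at 12h without mutant 12h replicate 2, 2 without WT 12h replicate 1 and 6 without WT 12h replicate 2. The genes called over the whole table fell along with them, to 544 without mutant 12h replicate 2 and 462 without WT 12h replicate 1, against 1172 with all libraries.

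At 1d 2 genes were higher and 15 lower in the mutant with TMM scaling, and 1 higher and 16 lower with RLE factors. With library totals alone 8 were higher and 4 lower, so the balance of directions rested on scaling for library composition. Of the TMM calls, 3 of 17 passed in all 22 alternatives, each of them lower in the mutant. The receptor gene pex5 had 162 and 187 CPM in mutant libraries, against 253 and 256 CPM in WT (-0.54 ± 0.0920 SE, adjusted p = 0.000334). The docking gene pex13 had 156 and 182 CPM in mutant libraries, against 230.5 and 212 CPM in WT (-0.39 ± 0.0763 SE, adjusted p = 0.0010). NCU03151 had 187 and 205 CPM in mutant libraries, against 295 and 266 CPM in WT (-0.52 ± 0.0909 SE, adjusted p = 0.000451). In all 3 genes the mutant libraries lay below both WT libraries. The gene acd-3 had 74.8 and 95.8 CPM in mutant libraries, against 122 and 122 CPM in WT (-0.51 ± 0.122 SE, adjusted p = 0.00399), and without mutant 1d replicate 1 the value was -0.35, adjusted p = 0.0524. NCU05558 (-0.34 ± 0.0823 SE, adjusted p = 0.00479), NCU06448 (-0.33 ± 0.0664 SE, adjusted p = 0.00138) and NCU09138 (-0.29 ± 0.0660 SE, adjusted p = 0.00333) were lower and lost their calls with library totals alone. The values were then -0.18, adjusted p = 0.100 for NCU05558, -0.17, adjusted p = 0.0537 for NCU06448 and -0.13, adjusted p = 0.149 for NCU09138.

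The genes that were higher at 1d were pex20 and NCU16336. The level of pex20 was 19.3 ± 2.16 CPM in mutant libraries, against 15.2 ± 0.370 CPM in WT (SD, n = 2 each). Its difference was 0.34 ± 0.128 (SE, adjusted p = 0.0461), a call lost in 13 of the 22 alternatives. NCU16336 had 24.9 and 21.8 CPM in mutant libraries, against 17.2 and 19.6 CPM in WT (0.34 ± 0.104 SE, adjusted p = 0.0189), and did not pass without mutant 1d replicate 1 (0.24, adjusted p = 0.163) or WT 1d replicate 1 (0.25, adjusted p = 0.165), or with each time fitted alone (0.33, adjusted p = 0.0782). A lower acd-1 at 1d (-0.27 ± 0.0988 SE, adjusted p = 0.0447) was lost in 10 of the 22. Lower values of NCU07741 (-0.28 ± 0.0962 SE, adjusted p = 0.0316) and NCU09058 (-0.31 ± 0.102 SE, adjusted p = 0.0250) were lost in 5 and 4 of them. Over the 48 genes, 10 passed at 1d without mutant 1d replicate 1, without WT 1d replicate 1 or without WT 1d replicate 2.

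The size or direction of the genotype difference changed with time for nearly all of the 48 genes. In a joint edgeR test that the difference was equal at the 4 times, 46 of the 48 genes (95.8%) passed, against 77.5% of all genes tested. Among the genes named here, pex3 did not pass (adjusted p = 0.282). The smallest adjusted p-values belonged to NCU03151 (2.51e-09), NCU08935 (9.59e-09), NCU05518 (1.20e-07), NCU09138 (1.65e-07) and NCU09646 (1.98e-07). By the counts at single times, 10 genes were higher at both 3d and 5d, 6 lower at both, 5 higher at 3d and lower at 5d, and 3 the reverse. Calls were made at 1 time for 13 genes, at 2 times for 20, at 3 times for 12 and at all 4 times for 2, acd-1 and NCU03151. None of these combinations was counted over all genes tested, so they are description only.

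Within each strain, the genes were followed from one time to the next in the same fit. Between 12h and 1d, 29 genes changed in the mutant, against a background of 40.7%. At 1d 4 of them were higher than at 12h (background 21.4%) and 25 lower (background 19.3%). In WT 32 genes changed in this step (background 56.8%), 15 higher (26.1%) and 17 lower (30.7%). Between 1d and 3d, 35 genes changed in the mutant (background 72.6%), 14 higher (35.6%) and 21 lower (37.0%). In WT 40 genes changed (background 79.0%), 10 higher (41.9%) and 30 lower (37.1%). Between 3d and 5d, 39 genes changed in the mutant (background 62.9%), 19 higher (31.7%) and 20 lower (31.2%). In WT 27 genes changed (background 54.6%), 13 higher (27.1%) and 14 lower (27.5%). With library totals alone, the same 3 steps gave 7 higher and 16 lower, 18 higher and 19 lower, and 22 higher and 16 lower genes in the mutant. In WT they gave 15 higher and 18 lower, 25 higher and 8 lower, and 17 higher and 11 lower genes. In the WT step to 3d that scaling moved the median of all genes by 0.49. There 18 genes passed in the same direction under both scalings and 8 in opposite directions, namely pex2, pex6, pex13, pex14, pex16, pex26, NCU06543 and NCU08382. A fit with the replicate number as a block gave 16 genes in the mutant step to 1d. That fit had a block term for each time, so its steps compared levels fitted for replicate 1 and are not a like-for-like check.

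Between 1d and 3d several enzyme genes of β-oxidation fell less, or rose more, in the mutant than in WT. In a test of the difference between the strains' steps, 28 of the 48 genes passed, where 53.3% of all genes passed. The step was more positive in the mutant for 21 (background 26.2%) and more negative for 7 (background 27.1%). With library totals alone, which moved the median of all genes by -0.38 in this comparison, 11 were more positive and 19 more negative, and 18 genes passed in the same direction under both. The 11 more positive ones were acd-1, fox-2, NCU03151, NCU04380, NCU04796, NCU05558, NCU06448, NCU06643, NCU08935, NCU09138 and NCU09646. The 7 more negative ones were pex6, pex20, pex26, NCU00828, NCU04393, NCU07578 and NCU16336. NCU03151 had a mutant step of -0.09 ± 0.0906 (SE, adjusted p = 0.401) and a WT step of -2.06 ± 0.0951 (SE, adjusted p = 4.96e-12). The steps differed by 1.97 ± 0.130 (SE, adjusted p = 3.48e-09). The WT level had thus dropped more than 2-fold while the mutant libraries at 1d and 3d lay together.

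NCU06448 fell in both strains, by a mutant step of -0.60 ± 0.0670 (SE, adjusted p = 5.30e-07) and a WT step of -1.72 ± 0.0694 (SE, adjusted p = 9.98e-13), which differed by 1.12 ± 0.0959 (SE, adjusted p = 7.59e-08). NCU08935 also fell in both, with steps of -0.37 ± 0.0642 (SE, adjusted p = 7.78e-05) in the mutant and -1.61 ± 0.0678 (SE, adjusted p = 1.66e-12) in WT and a difference of 1.24 ± 0.0930 (SE, adjusted p = 1.50e-08). The thiolase gene NCU09646 rose in the mutant, by 0.74 ± 0.0765 (SE, adjusted p = 2.16e-07), and fell in WT, by a step of -0.55 ± 0.0788 (SE, adjusted p = 7.66e-06). With library totals its WT step was -0.06 (adjusted p = 0.443). The amine oxidase gene NCU05518 rose in both strains, by 2.22 ± 0.0899 (SE, adjusted p = 2.75e-12) in the mutant and 1.80 ± 0.0927 (SE, adjusted p = 1.93e-11) in WT, and its difference of 0.41 ± 0.128 (SE, adjusted p = 0.0123) was 0.03 with library totals (adjusted p = 0.871).

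**Figure D4:**
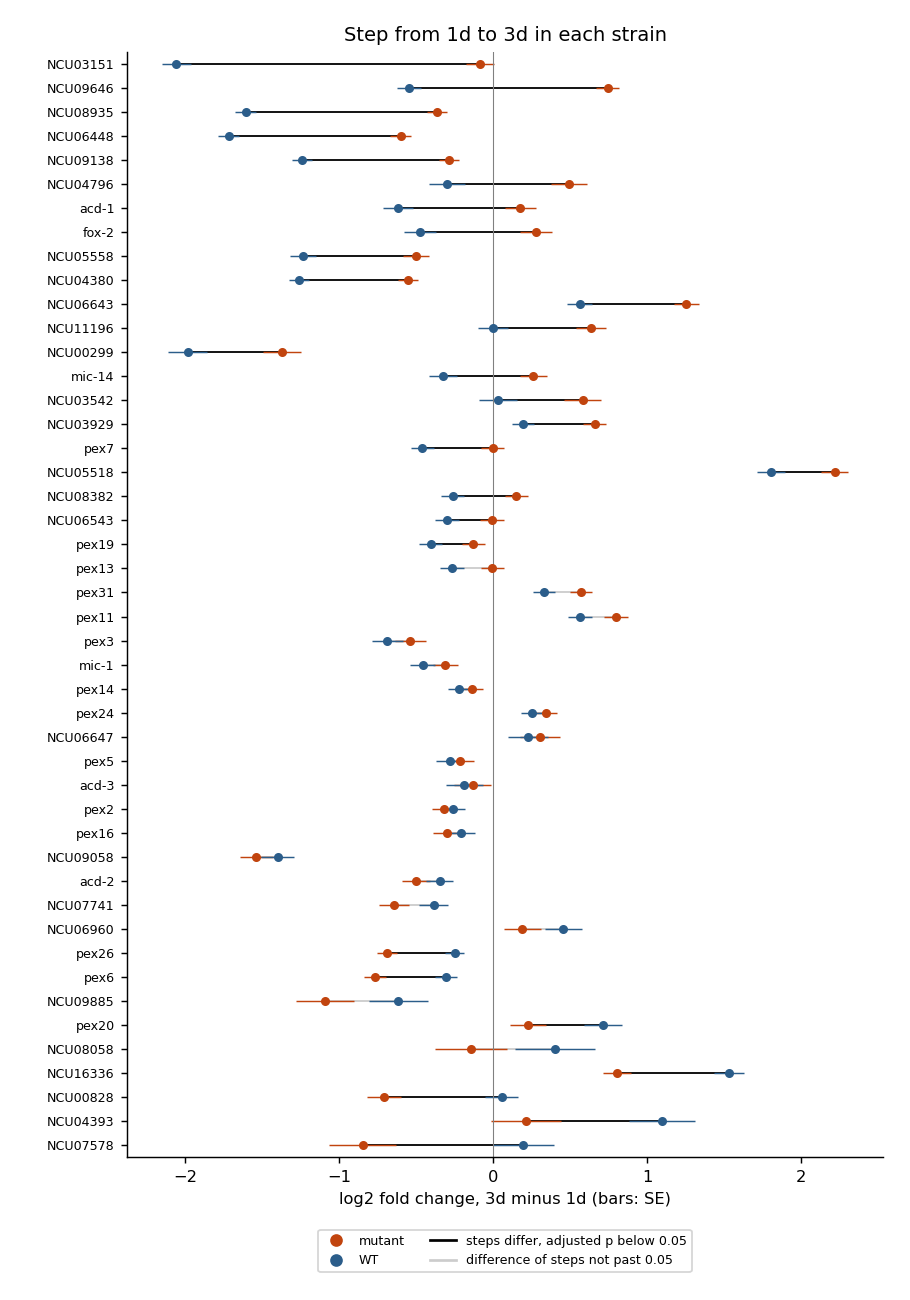
Log2 change between 1d and 3d of 46 of the 48 genes (rows, in order of the difference between the strains), with a point for the mutant and a point for WT, bars for the SE, and a black line between them where the steps differed past the test. The top row is NCU03151, with steps of -0.09 in the mutant and -2.06 in WT.

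For the other steps, 14 genes differed between the strains from 12h to 1d, against a background of 21.7%. Their steps were more positive in the mutant for 0 (background 12.2%) and more negative for 14 (background 9.42%). This count was 7 without mutant 12h replicate 2, 8 without mutant 1d replicate 1 and 9 without WT 12h replicate 1, and with library totals 9 genes passed, 1 more positive and 8 more negative. From 3d to 5d, 30 genes differed, against 51.9%. Their steps were more positive in the mutant for 13 (background 26.4%) and more negative for 17 (background 25.5%), and 29 of them passed in the same direction with library totals. The largest positive differences of this step among the named genes were those of acd-3, with 1.34 ± 0.119 (SE, adjusted p = 5.74e-08) in the mutant, -0.17 ± 0.119 (SE, adjusted p = 0.247) in WT and 1.51 ± 0.168 (SE, adjusted p = 1.86e-06) between them, and of NCU07578, with a difference of 1.51 ± 0.280 (SE, adjusted p = 0.000295). The largest negative one was that of NCU05518, which had a step of -0.08 ± 0.0815 (SE, adjusted p = 0.398) in the mutant and rose by 1.39 ± 0.0829 (SE, adjusted p = 1.04e-09) in WT, a difference of -1.47 ± 0.116 (SE, adjusted p = 3.68e-08). Seen over the whole course, 35 of the 48 genes had their highest mean level at the same time in both strains. In the mutant the highest level came at 12h for 20 genes, at 1d for 11, at 3d for 6 and at 5d for 11. In WT it came at 12h for 16 genes, at 1d for 17, at 3d for 3 and at 5d for 12. Such peak times were not counted over all genes tested.

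Genes of neighbouring pathways that the annotation search did not take were read from 7 lists in the same fit. Their counts stand against all genes tested, of which 29.4% were higher and 30.0% lower at 3d, and 30.6% higher and 30.9% lower at 5d. Of 10 other β-oxidation and carnitine genes, 7 were higher and 1 lower in the mutant at 3d, with a median difference of 0.57, and 2 were higher and 4 lower at 5d, with a median of -0.15. The acetyl-CoA acetyltransferase gene NCU02571 had 224 and 238 CPM in mutant libraries, against 85.5 and 74.5 CPM in WT at 3d (1.53 ± 0.0892 SE, adjusted p = 2.66e-10). A second gene of that name, NCU09732, was higher by 0.92 ± 0.0752 (SE, adjusted p = 2.06e-08) at 3d and 0.98 ± 0.0701 (SE, adjusted p = 5.87e-09) at 5d, and the carnitine acetyltransferase gene NCU08002 by 0.74 ± 0.0729 (SE, adjusted p = 2.16e-07) and 0.90 ± 0.0744 (SE, adjusted p = 3.36e-08).

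The 5 genes listed under the glyoxylate cycle and acetyl-CoA use gave 4 higher and 1 lower at both 3d and 5d, with medians of 0.51 and 0.69. Not all of them turn acetyl-CoA into precursors of sugars, since the search terms also covered acetyl-CoA synthetase and acetyl-CoA hydrolase. The isocitrate lyase gene acu-3 was higher by 0.97 ± 0.0780 (SE, adjusted p = 1.55e-08) and 0.69 ± 0.0774 (SE, adjusted p = 1.24e-06), and the malate synthase gene acu-9 by 1.41 ± 0.0689 (SE, adjusted p = 5.80e-11) at 5d. The phosphoenolpyruvate carboxykinase gene acu-6 differed by 1.27, -2.35, 1.25 and 2.27 at the 4 times, each past the test (adjusted p = 0.000614, 4.77e-07, 3.16e-05 and 5.81e-08). With library totals alone, the 2 lists gave 5 higher and 2 lower, and 3 higher and 1 lower genes, at 3d, and 2 higher and 5 lower, and 4 higher and 1 lower, at 5d.

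Of 11 genes of fatty acid synthesis, the opposite pathway, 8 were higher and 2 lower in the mutant at 3d and 7 higher and 1 lower at 5d, with medians of 0.57 and 0.60. With library totals alone, 7 were higher and 3 lower at 3d and 6 higher and 1 lower at 5d. The fatty acid elongase gene NCU08976 had 50.6 and 47.4 CPM in mutant libraries, against 7.05 and 7.36 CPM in WT at 3d (2.77 ± 0.0979 SE, adjusted p = 5.35e-13), and the acyl-CoA desaturase gene NCU05259 had 319 and 325 CPM in mutant libraries, against 62.6 and 63.5 CPM in WT (2.35 ± 0.0997 SE, adjusted p = 4.79e-12). Both genes were several times higher in each mutant library than in either WT library. The gene ods differed by 1.50 ± 0.0771 (SE, adjusted p = 5.55e-11) at 3d and 1.20 ± 0.0782 (SE, adjusted p = 1.97e-09) at 5d.

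The 2 Woronin body genes were both lower in the mutant at 3d and at 5d. The gene hex-1, which encodes the core protein of this peroxisome-derived organelle that plugs septal pores, had 1961 and 1880.1 CPM in mutant libraries, against 4389.6 and 4111 CPM in WT at 3d (-1.15 ± 0.0768 SE, adjusted p = 1.57e-09). The sorting complex gene wsc was lower, with a difference of -0.81 ± 0.0662 (SE, adjusted p = 2.05e-08) at 3d. Of 4 catalases, which break down hydrogen peroxide, 2 were higher and 2 lower at 3d, and 2 higher and 0 lower at 5d. With library totals 1 was higher and 2 lower at 3d. Their annotations do not name the peroxisome. The gene cat-4 was higher at 1d and at 3d, calls that passed in 22 and 15 of the 22 alternatives. At 3d cat-1 was lower, with a difference of -1.37 ± 0.0876 (SE, adjusted p = 8.87e-10), and cat-2 higher by 1.09 ± 0.0797 (SE, adjusted p = 4.80e-09), while cat-3 was lower, with a difference of -0.76 ± 0.100 (SE, adjusted p = 5.92e-06) at 3d and higher by 1.25 ± 0.102 (SE, adjusted p = 3.10e-08) at 5d.

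Of 6 triacylglycerol lipases, which release fatty acids from storage fat, 0 were higher and 4 lower at 3d, and 2 higher and 2 lower at 5d. With library totals alone, 0 were higher and 6 lower at 3d, and 0 higher and 3 lower at 5d. NCU08372 was lower, with differences of -1.06 ± 0.115 (SE, adjusted p = 6.00e-07) at 3d and -1.67 ± 0.122 (SE, adjusted p = 7.22e-09) at 5d, and cea-4 was lower at 5d (-1.32 ± 0.141 SE, adjusted p = 6.83e-07). The lipase gene tgl-4 was higher at 1d by 1.16 ± 0.101 (SE, adjusted p = 5.54e-07) and lower at 3d, with a difference of -0.51 ± 0.0910 (SE, adjusted p = 0.000133). Of 3 regulator genes, 3 were higher at 12h and 2 at 1d, 1 was lower at 3d and 1 higher at 5d, or 3 lower at 3d and none higher or lower at 5d with library totals. NCU03643, annotated as cutinase transcription factor 1 beta, was higher by 1.01 ± 0.0963 (SE, adjusted p = 3.63e-06) at 12h and 0.69 ± 0.102 (SE, adjusted p = 0.000112) at 1d, and acu-15, the activator of acetate-use genes, was lower, with a difference of -0.72 ± 0.111 (SE, adjusted p = 3.24e-05) at 3d.

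**Figure D5:**
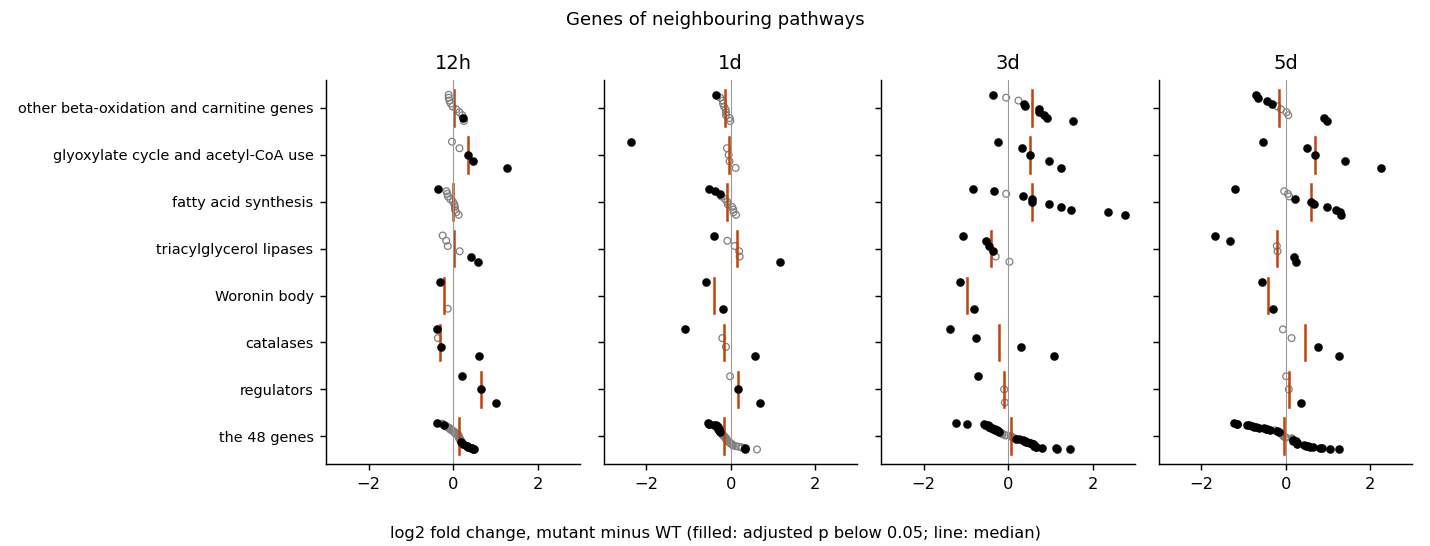
Log2 difference, mutant minus WT, of the genes of the neighbouring pathway lists and of the 48 genes at 12h, 1d, 3d and 5d; points are genes, filled where they passed the test, and vertical lines are medians. At 3d the medians of the other β-oxidation and the fatty acid synthesis genes lie at 0.57, and those of the Woronin body genes and the lipases below 0.

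In the reference gene order, pairs were formed only of genes with no other of the 48 between them. Of such pairs, 6 had at most 10 loci between them, and not all are described here. The peroxin gene pex2 and NCU16336 are direct neighbours. Their differences at 3d were -0.31 and -0.39, and at 5d -0.06 (adjusted p = 0.558) and -0.50. NCU06643 lies with 3 loci between it and NCU06647, and at 5d it was higher by 0.85 while NCU06647 was lower, at -0.92. Of pex31 and NCU05558, with 5 loci between them, pex31 was higher at 5d and NCU05558 lower, at 0.18 and -0.70.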

How the data were processed

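RNA-seq of 16 libraries, 2 in each of 8 groups of strain and time, was read from 1 deposited table of 9730 genes. Read counts per gene were made by the authors with TopHat2 2.0.8b and HTSeq 0.5.4p3, per the submitters' processing notes; the genome build and the use of strand are not given in the sources used here. The RPKM values deposited beside the counts equal counts scaled by gene length and a library total within a tolerance of 0.001 for 146267 of 146267 values above 0. Rows that name no gene were present for 2 libraries, with 4.43% and 6.86% of their reads, and were left out.

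The counts were fitted with edgeR 4.0.16 in R 4.3.3 (quasi-likelihood test, TMM scaling, filterByExpr), with 1 mean per group over all 16 libraries and 8 residual degrees of freedom. The filter kept 8983 genes and removed 747. P-values were adjusted by the Benjamini-Hochberg method over all genes tested, and SE is the log2 difference divided by the square root of F. Alternatives used library totals, RLE factors, DESeq2 1.42.0, no filter, each time alone, a replicate block, and each library left out in turn; depth limits precision most for genes of few reads, and only counting and library spread are covered.

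The members and the pathway lists were chosen with earlier results of these data known. Named genes are the members of highest RPKM in a class, the 5 largest differences in each direction at each time, and the 5 smallest adjusted p-values for unequal differences; other members are given for completeness, except 2 that enter the counts and are not reported singly here. Of the lists, up to 3 genes with the largest differences are named, and of the catalases cat-4 is named as well. Table loci were matched to a RefSeq gene table of assembly NC12 for overlaps and neighbours (9729 matched); no sequence is printed.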

Additional observations from a re-analysis of the deposited data

Results flagged for a closer look

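The genotype difference was unequal over the 4 times for 46 of the 48 genes, by the joint edgeR test described above. The named genes with the smallest Benjamini-Hochberg adjusted p-values in that test were NCU03151 (adjusted p = 2.51e-09), NCU08935 (adjusted p = 9.59e-09), NCU05518 (adjusted p = 1.20e-07), NCU09138 (adjusted p = 1.65e-07) and NCU09646 (adjusted p = 1.98e-07). NCU03151 was lower in the mutant at 1d, by -0.52 ± 0.0909 (SE), and higher at 3d, by 1.46 ± 0.0937 (SE). NCU08935, NCU09138 and NCU09646 had their most positive difference at 3d, at 1.13, 0.67 and 1.15. NCU05518 was higher at 3d and lower at 5d, by 0.67 and -0.80.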

How the results depend on the processing

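Of the 61 differences past the test of genes chosen by the naming rule, none changed direction under an alternative. Among all calls between the strains 1 did, that of NCU03929 at 3d, which was -0.04 with library totals alone. The number of the 61 that stayed past the threshold was 61 without the low count filter, 59 with RLE factors, 59 with the replicate block, 58 with DESeq2, 56 with each time fitted alone and 51 with library totals alone. With library totals alone, the count for the step from 12h to 1d, mutant minus WT, was 9, against 14. Leaving out 1 library gave 2 to 14 genes at 12h, 10 to 19 at 1d, 31 to 37 at 3d and 25 to 34 at 5d, and 42 to 47 for unequal differences. For the steps it gave 21 to 30, 32 to 35 and 30 to 39 in the mutant, 24 to 33, 35 to 41 and 22 to 28 in WT, and 7 to 21, 23 to 31 and 22 to 31 for the strain differences. The replicate numbers showed no pairing between the strains. At the same time, same-numbered libraries of the strains had deviations correlated by 0.0208, -0.0292, -0.00603 and -0.0368 at the 4 times. Pairing across times within a strain was not tested. The fit with the replicate number as a block gave 9, 17, 36 and 32 genes for the strains at the 4 times and 45 for unequal differences. It gave 16 for the mutant step from 12h to 1d, against 29. Each time had its own block term there, so a step compared the levels fitted for replicate 1. The step count is therefore not a like-for-like check, and how much of the fall this makes was not tested. DESeq2 gave 10, 16, 33 and 29 genes at the 4 times. With 2 libraries per group, each count rests on a spread shared by all groups, and a group left with 1 library is assumed to vary like the others. Genes of few reads, such as NCU07578, NCU04393 and NCU08058, have the widest standard errors.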
